A study of Mus musculus with 6 samples.

Results

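Ribosomal protein genes were examined in the female C57BL/6 mouse line Melan-a, immortal melanocytes that still make pigment, transfected either with siDicer, an siRNA directed at Dicer, or with the control siRNA siScr. Of 10 ribosomal protein genes named by symbol, 6 had a transcript cluster (the set of array probes summarised to one value) that the platform annotation paired with a single gene, among 7659 such genes in the table. The 6 are Rps20 and Rps3a1 of the small ribosomal subunit and Rpl22, Rpl11, Rpl7 and Rpl37a of the large subunit. The other 4 were not analysed here, because the annotation pairs their clusters with further genes: Rpl31 with Rpl31-ps12, Rps6 with Rps6-ps4, Rps21 with Gm5963, and Rpl34 with Rpl34-ps1, Gm4705 and Gm6404.

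RNA from 3 siDicer and 3 siScr samples was hybridised to Clariom D mouse arrays, and values are log2 signals as deposited. Each group has 1 sample at each of cell passages 47, 54 and 56, replicates 1, 2 and 3. All samples came from cells grown with 200 nM of the phorbol ester TPA and are labelled as taken 48 h after transfection, although the protocol text for the transfection has the cells lysed sooner. The replicates are called biological in the design text and are cultures of 1 cell line. Array medians lay between log2 4.63 and 4.68, and array pairs correlated at 0.993 to 0.997. The RNA integrity number was 10.0 in each sample. The clusters in the table are numbered on chromosomes 1 to 4, and Dicer1 itself was not analysed here, so the knockdown was not checked. Melanocyte markers were bright, with mean signals in siDicer and siScr of 12.81 and 12.86 for Tyrp1 and of 10.48 and 10.60 for Pax3. Slc24a5 was at 10.59 and 10.85 and Mlph at 10.01 and 10.05. Of 4 leukocyte markers Ptprc and Cd48 were under the limit for dim genes of 4.15 in both groups, Cd2 was at 4.11 in siDicer and 4.20 in siScr and Cd53 at 4.45 and 4.58. The 3 keratinocyte markers were at 3.92 and 3.95 (Ivl, dim), 5.61 and 5.60 (Lor) and 6.89 and 6.92 (Flg). Of 3 fibroblast markers Fn1 was at 10.88 in siDicer and 10.62 in siScr, Col3a1 at 6.29 and 6.34 and Col5a2 at 5.22 and 5.26. The part of other cell types in the results was not tested.

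Ribosomal proteins are the protein part of the small and large ribosomal subunits, and growing cells devote a large share of their messenger RNA to them. Their messenger RNAs classically begin with a terminal oligopyrimidine tract, an unbroken run of C and T at the very start, through which growth signalling sets how well they are translated. Their genes also give rise to many processed pseudogenes, copies so close to the messenger RNA that array probes may read both. Dicer cuts microRNA precursors into mature microRNAs, which lower the stability and translation of the messenger RNAs they pair with.

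The starts of these genes are shown because the tract lies there. RefSeq promoter entries (build GRCm38.p6) were found for 4 of the 6 genes, with 5 annotated starts, and not for Rps20 and Rpl7. Each line gives the gene's own strand from 40 bases before to 20 bases from the annotated start on, and capitals mark the longest run of C and T that overlaps the stretch from 5 bases before to 10 bases after it.
Rpl22, chr4:152324396-152324455, plus strand: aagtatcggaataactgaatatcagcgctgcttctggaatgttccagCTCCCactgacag
Rpl22, chr4:152325686-152325745, plus strand: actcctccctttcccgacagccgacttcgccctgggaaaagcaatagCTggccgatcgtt
Rpl11, chr4:136053374-136053433, minus strand: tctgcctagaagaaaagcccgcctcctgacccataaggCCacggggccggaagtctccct
Rpl37a, chr1:72711220-72711279, plus strand: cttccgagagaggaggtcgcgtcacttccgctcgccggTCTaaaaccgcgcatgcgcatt
Rps3a1, chr3:86142649-86142708, minus strand: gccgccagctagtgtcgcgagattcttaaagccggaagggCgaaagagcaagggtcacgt

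Of these 5 starts 1, in Rpl22, had a run of at least 5 bases, against 38.0% of all 32851 promoters in the table. The start base there was G and lay before the run, so the run was not at the very start. A C stood at the start in 20% of the 5 starts, against 16.3% of all promoters. The runs depend on where RefSeq places the start. The second Rpl22 start lay 1290 bases inside the edge of the gene, and the other starts shown lay at the edge. For contrast, the starts of 2 ribosomal protein genes that were measured outside the set lay inside long runs, of 21 bases in Rpl7a and 18 bases in Rpl35. The Rpl7a start lay 122 bases inside the edge of its gene, and the Rpl35 start lay at the edge.
Rpl7a, chr2:26910767-26910826, plus strand: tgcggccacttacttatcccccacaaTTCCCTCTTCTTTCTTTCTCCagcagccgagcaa
Rpl35, chr2:39005112-39005171, minus strand: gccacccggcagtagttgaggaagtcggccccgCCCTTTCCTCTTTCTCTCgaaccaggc
A TATA box, searched as TATAAA or TATATAA on the gene's own strand in the 50 bases before the start and counted once where both match, was found in 0 of the 5 starts and in 3.12% of all promoters. It was found in Rpl22l1, the third such gene outside the set, whose start base G lay outside a run of 10 bases just after it.

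For none of the 6 ribosomal protein genes did the difference between siDicer and siScr pass the test. With limma (lmFit and eBayes with a trend, two-sided, Benjamini-Hochberg over 5361 tested genes, threshold 0.05) 0 of 6 passed, where 0.0187% of all tested genes, that is 1 gene, did. At an unadjusted p under 0.05 there were 0 of 6, against 8.52% of all tested genes. With the cell passage as a replicate block 0 of 6 passed, against 1.73% of all tested genes, and 0 of 6 had an unadjusted p under 0.05, against 13.8%. In 0 of 6 were the siDicer and siScr arrays without overlap, against 14.5% of all tested genes. The differences ran from log2 -0.018 to 0.13, with a median of 0.014, against a median of -0.0093 over all tested genes. Their 95% intervals together spanned log2 -0.19 to 0.32, which is 0.877-fold to 1.25-fold of siScr, so any larger difference of a single gene lies outside its interval.

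**Figure D1:**
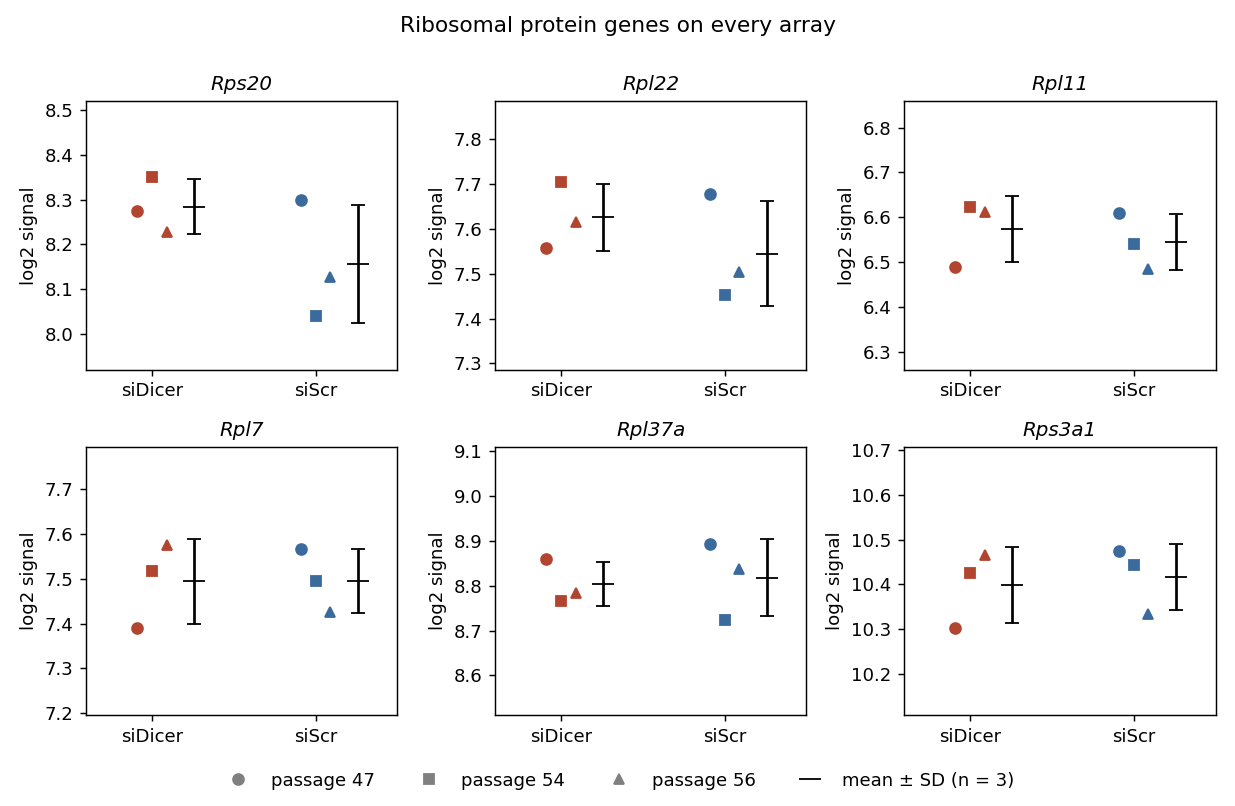
The log2 signal of each of the 6 genes (vertical axes, each spanning the same range) on every array, siDicer left and siScr right, with the symbol giving the passage and the black bar the mean ± SD of 3 arrays. In all 6 panels the groups overlap, and at passage 47 (circles) the siDicer array lies below the siScr array.

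In the small subunit, Rps20 encodes a protein of the subunit's head. Its log2 signals at passages 47, 54 and 56 were 8.27, 8.35 and 8.23 in siDicer, against 8.30, 8.04 and 8.13 in siScr. The siDicer arrays lay close together, and the siScr array of passage 47 lay among them. Rps20 averaged 8.28 ± 0.062 in siDicer and 8.16 ± 0.13 in siScr (SD, n = 3 each), the largest of the 6 differences at log2 0.13 ± 0.084 (SE, limma, adjusted p = 0.745). An exact permutation of the arrays gave a two-sided p of 0.3, where 3 against 3 arrays cannot go below 0.1. Its 95% interval ran from -0.066 to 0.32.

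Rps3a1 encodes a small-subunit protein that lies near the exit of the messenger RNA channel. Its log2 signals at passages 47, 54 and 56 were 10.30, 10.43 and 10.47 in siDicer, against 10.48, 10.44 and 10.33 in siScr. The array of passage 47 had the lowest value in siDicer and the highest in siScr. The means were 10.40 ± 0.085 in siDicer and 10.42 ± 0.075 in siScr (SD, n = 3 each), a difference of log2 -0.018 ± 0.074 (SE, limma, adjusted p = 0.978) with an interval from -0.19 to 0.15.

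In the large subunit, Rpl22 encodes an RNA-binding protein that the ribosome can do without and that has a paralog, Rpl22l1. The log2 signals of Rpl22 at passages 47, 54 and 56 were 7.56, 7.70 and 7.61 in siDicer, against 7.68, 7.45 and 7.50 in siScr. As with Rps20, the siScr array of passage 47 stood above the other siScr arrays. Rpl22 averaged 7.63 ± 0.074 in siDicer and 7.55 ± 0.12 in siScr (SD, n = 3 each), a difference of log2 0.081 ± 0.081 (SE, limma, adjusted p = 0.853).

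Rpl22l1 was read by a cluster of its own on chromosome 3. Its mean log2 signal was 5.79 in siDicer and 5.84 in siScr, a difference of -0.052 with a 95% interval from -0.37 to 0.26 (limma, adjusted p = 0.959). The paralog's interval is the widest among the ribosomal protein genes measured. Its signal differed between passages at an unadjusted p of 0.0217 (limma F test, adjusted p = 0.219), which did not pass.

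Rpl11 encodes a large-subunit protein that, outside the ribosome, binds Mdm2 together with Rpl5 and the smallest large-subunit ribosomal RNA and so links ribosome assembly to p53. Rpl11 had log2 signals at passages 47, 54 and 56 of 6.49, 6.62 and 6.61 in siDicer, against 6.61, 6.54 and 6.48 in siScr. Over all arrays it varied by 0.14, the narrowest range of the 6 genes. It averaged 6.57 ± 0.073 in siDicer and 6.54 ± 0.062 in siScr (SD, n = 3 each), a difference of log2 0.029 ± 0.068 (SE, limma, adjusted p = 0.954).

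Rpl7, which encodes a large-subunit protein that binds ribosomal RNA, had log2 signals at passages 47, 54 and 56 of 7.39, 7.52 and 7.58 in siDicer, against 7.57, 7.50 and 7.43 in siScr. In siDicer the array of passage 47 was the lowest, and in siScr it was the highest. Their means were both near 7.50 (SD 0.095 in siDicer and 0.071 in siScr, n = 3 each), with a difference of log2 -0.0015 ± 0.076 (SE, limma, adjusted p = 0.998).

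Rpl37a encodes a zinc-binding protein of the large subunit. Its log2 signals at passages 47, 54 and 56 were 8.86, 8.77 and 8.78 in siDicer, against 8.89, 8.72 and 8.84 in siScr. Unlike the other 5 genes it was highest at passage 47 and lowest at passage 54 in both groups. Rpl37a averaged 8.80 ± 0.049 in siDicer and 8.82 ± 0.087 in siScr (SD, n = 3 each), a difference of log2 -0.015 ± 0.072 (SE, limma, adjusted p = 0.983). Levels are not ranked between genes, since the probes of different clusters do not read on a common scale.

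The spread of these genes between arrays lay near the middle of the table. The SD pooled over both groups ran from 0.068 (Rpl11) to 0.10 (Rps20), with a median of 0.082, against a median of 0.093 over all tested genes and 0.10 over the 2419 other tested genes whose mean signals lay in the same range. Rpl11 had a smaller SD than most of the table, with 27.9% of tested genes below it, and for Rps20 the share was 57.3%. An effect of passage itself passed in 0 of 6, against 1.85% of all tested genes (limma F test, adjusted p from 0.628 for Rpl37a to 0.980 for Rpl7). Its unadjusted p was under 0.05 in 0 of 6, against 16.1% of all tested genes. The F test reads passages averaged over both groups, so passage differences of opposite direction in siDicer and siScr cancel in it.

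Of other cytosolic ribosomal protein genes, 3 had a cluster with a single gene, Rpl22l1, Rpl7a and Rpl35. Rpl7a, a large-subunit gene whose introns hold small nucleolar RNAs, averaged 9.33 in siDicer and 9.27 in siScr, a difference of log2 0.058 with an interval from -0.096 to 0.21 (limma, adjusted p = 0.878). Rpl35 had 2 clusters. The brighter, numbered on chromosome 1 although RefSeq places the gene on chromosome 2, gave 10.61 in siDicer and 10.60 in siScr, and the one on chromosome 2 gave 9.81 in siDicer and 9.80 in siScr. In each of these 3 genes too, the siDicer and siScr arrays overlapped.

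**Figure D2:**
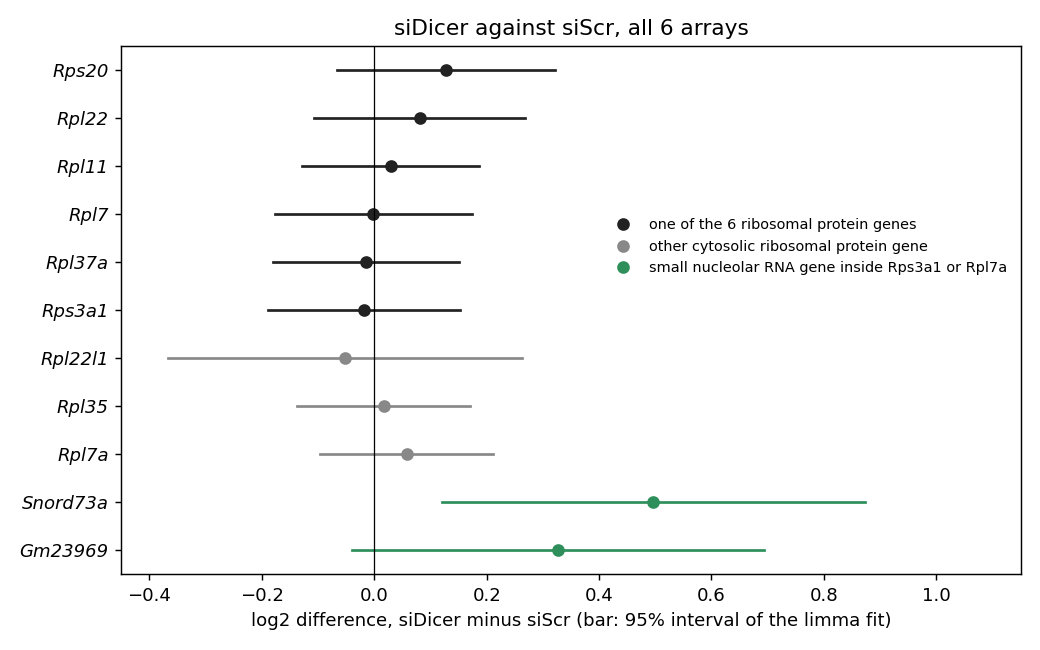
Log2 difference between siDicer and siScr over all 6 arrays (horizontal axis) for the 6 ribosomal protein genes, the 3 others with a single-gene cluster, and 2 small nucleolar RNA genes that lie inside Rps3a1 and Rpl7a, with bars for the 95% interval of the limma fit. The intervals of the 9 ribosomal protein genes include 0, and that of Snord73a runs from 0.12 to 0.87.

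Inside 1 of the 6 genes lies a small nucleolar RNA with a cluster of its own. Snord73a, a guide RNA for ribosomal RNA modification, sits within Rps3a1 in RefSeq. Its log2 signals at passages 47, 54 and 56 were 7.610, 7.295 and 7.498 in siDicer, against 7.292, 6.620 and 7.002 in siScr. Each siDicer array lay above every siScr array, though the lowest siDicer and the highest siScr value were close. Snord73a averaged 7.47 ± 0.16 in siDicer and 6.97 ± 0.34 in siScr (SD, n = 3 each). With passage as a replicate block it rose by log2 0.50 ± 0.079 (SE, limma, adjusted p = 0.0345), and without the block the same difference did not pass (limma, adjusted p = 0.42). The call with the block was lost without passage 47 (log2 0.59, limma, adjusted p = 0.142) and without passage 54 (log2 0.41, limma, adjusted p = 0.137), and it was kept without passage 56 (log2 0.50, limma, adjusted p = 0.0353). These fits without a passage were added after seeing the data and rest on fewer arrays.

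The host Rps3a1 was at log2 -0.018 in the same comparison. Snord73a minus Rps3a1 was higher in siDicer than in siScr by log2 0.51, and by 0.49, 0.69 and 0.36 at passages 47, 54 and 56 (exact permutation test, two-sided p = 0.1, the smallest that 3 against 3 arrays can give). The probes of such a gene can read the host's unspliced transcript as well as the short RNA. Gm23969, which RefSeq types as a small nucleolar RNA gene inside Rpl7a, averaged 8.77 in siDicer and 8.44 in siScr, a difference of log2 0.33 that did not pass (limma, adjusted p = 0.657, and 0.272 with the replicate block). At passages 47, 54 and 56 that difference was 0.62, 0.38 and -0.020. With the block it passed without passage 56 (log2 0.50, limma, adjusted p = 0.0211), the only passage at which Gm23969 was not higher in siDicer. That fit was added after seeing the data and rests on fewer arrays. In that fit 153 of all tested genes passed, against 93 with the block and all passages. It did not pass without passage 47 (log2 0.18, limma, adjusted p = 0.666) or without passage 54 (log2 0.30, limma, adjusted p = 0.545).

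Compared within passages, most of the 6 ribosomal protein genes had differences of like sign. At passage 47, 6 of 6 were lower in siDicer than in siScr, against 51.6% of all tested genes and 53.6% of the 2419 others in the same signal range, by 0.026 (Rps20) to 0.18 (Rpl7) on the log2 scale. At passage 54, 5 of 6 were higher, against 49.2% of all tested genes and 61.9% of those others, with Rps20 at 0.31, Rpl22 at 0.25 and the exception Rps3a1 at -0.016. At passage 56, 5 of 6 were higher, against 44.5% of all tested genes and 46.8% of those others, with Rpl7 at 0.15, Rps3a1 at 0.13 and the exception Rpl37a at -0.054. The median difference over the 6 genes was -0.12, 0.062 and 0.12 at passages 47, 54 and 56. Each of these is a difference between 2 arrays, so it has no error of its own and was not tested. The 3 cytosolic ribosomal protein genes outside the set differed in sign among themselves at passages 47 and 56, with Rpl35 read by its brighter cluster. At passages 47, 54 and 56 Rpl7a was at 0.084, 0.039 and 0.050, Rpl35 at -0.051, 0.11 and -0.0077, and Rpl22l1 at -0.29, 0.011 and 0.12. The Rpl35 cluster on chromosome 2 had signals of 9.79, 9.83 and 9.81 in siDicer, against 9.88, 9.79 and 9.74 in siScr. Read by that cluster, all 3 genes were higher in siDicer at passage 56, and their signs still differed at passage 47.

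Being lower at passage 47 and higher at passage 56, a pattern described after the values were seen, held for 5 of the 6 genes, all but Rpl37a, against 21.7% of all tested genes. With Rpl35 read by its brighter cluster, it held for 1 of the 3 other cytosolic ribosomal protein genes, Rpl22l1. Read by its cluster on chromosome 2, Rpl35 too was lower at passage 47 and higher at passage 56. The pattern held for 15% of the mitochondrial ribosomal protein, 19.0% of the translation factor and 18.8% of the ribosome assembly genes tested. The share was 21.7% among the 2419 other tested genes in the same signal range, 14.1% among 3524 tested protein-coding genes other than ribosomal proteins, and 50.3% among 922 tested genes that RefSeq types as pseudogenes of other names. Those 922 were set apart by symbol only, so they may hold copies of ribosomal protein genes under Gm symbols. Among the 280 other tested genes at least as bright as the median ribosomal protein pseudogene (log2 9.65) it was 44.6%. Of the 6 genes only Rps3a1 is that bright. The 280 include genes typed as pseudogenes under other names, so they too may hold copies of ribosomal protein genes. What part brightness or cross-reading of copies has in the order was not tested.

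Seen by array, the mean deviation of the 6 genes from their own means was highest in siScr at passage 47, at log2 0.074, where 6 of 6 lay above their mean. It was -0.034, 0.052 and 0.033 in siDicer at passages 47, 54 and 56, against 0.074, -0.064 and -0.061 in siScr. Within the set Rpl7 and Rps3a1 had the most similar profiles over the 6 arrays, with a root mean square difference of 0.017, and Rps20 and Rps3a1 the least similar, with 0.12. Rps20 and Rpl22 were at 0.040.

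**Figure D3:**
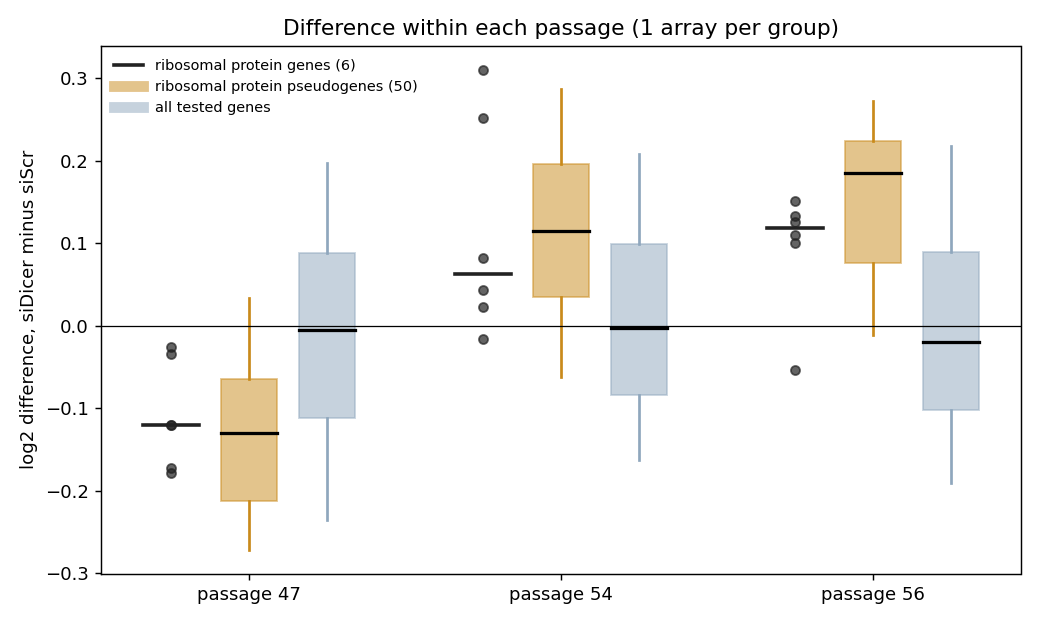
Log2 difference between the siDicer and the siScr array of the same passage (vertical axis) for the 6 ribosomal protein genes (points, line at the median), 50 ribosomal protein pseudogenes and all 5361 tested genes (boxes from the lower to the upper quartile, line at the median, whiskers to the outer deciles). The medians of the pseudogenes are -0.13, 0.11 and 0.18 at passages 47, 54 and 56, beside -0.12, 0.062 and 0.12 for the 6 genes.

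The pseudogenes of ribosomal protein genes had medians of the same signs at the 3 passages. Of 52 with a numbered symbol of the form Rpl or Rps and -ps, 50 were tested and 2 were dim. They were lower in siDicer at passage 47 in 44 of 50, higher at passage 54 in 40 of 50 and higher at passage 56 in 44 of 50, and 39 of 50 were lower at passage 47 and higher at passage 56. Of the 280 other tested genes at least as bright as the median pseudogene, 60.7% were lower at passage 47, 65.7% higher at passage 54 and 69.6% higher at passage 56. These 280 do not match the pseudogenes in brightness, since the pseudogenes reach down to a mean signal of log2 4.45. The 280 also include pseudogenes under other names, which may be copies of ribosomal protein genes. Over all 6 arrays 38 of the 50 pseudogenes were higher and 12 lower, with a median of log2 0.045. That is 76.0% higher, against 45.5% of all tested genes (median -0.0093) and 68.9% of the 280 others at least as bright as the median pseudogene (median 0.051). With or without the block 0 passed (limma). At an unadjusted p under 0.05 there was 1 of 50 without the block, Rpl23a-ps1, against 8.52% of all tested genes, and 1 of 50 with it, Rpl38-ps1, against 13.8%. Whether these clusters read messenger RNA of the parent genes, transcripts of the copies or both was not tested.

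Rpl23a-ps1 averaged 7.11 in siDicer and 6.96 in siScr, a difference of log2 0.15 (limma, adjusted p = 0.582). The largest difference among the pseudogenes was that of Rpl38-ps1, at log2 0.29, with a mean of 10.34 in siDicer and 10.06 in siScr (limma, adjusted p = 0.603). Rpl23a-ps4 was at 0.19 and Rpl19-ps1 at 0.15, and neither passed (limma, adjusted p = 0.634 and 0.743).

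By likeness of profile, the tested genes outside the set nearest to the mean profile of the 6 were Gm4258, Zfp593, Gm14439, Gm10288 and Ankrd50, with root mean square differences of 0.020 to 0.024 over the 6 arrays. The nearest gene to Rps20 was Sdf4, to Rpl22 it was Rpl12-ps1, to Rpl11 Ankrd13c, to Rpl7 Gm12969, to Rpl37a Gm14278 and to Rps3a1 Gm5710. RefSeq types 6 of these 11 as pseudogenes, among them Rpl12-ps1, where 18.2% of all tested genes have that type. The 11 were all picked by likeness to the same 6 genes or their mean, so they are not independent, and their share was not tested. Arrays of one passage are shared by all of these profiles.

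Genes of the mitochondrial ribosome, which translates the few messenger RNAs of the mitochondrial genome, went both ways. Of 20 tested, 9 were higher and 11 lower in siDicer, with a median of log2 -0.0013, and 0 passed with or without the block (limma). Mrpl50, a large-subunit member, averaged 8.11 in siDicer and 7.88 in siScr, a difference of 0.23 (limma, adjusted p = 0.453) that was 0.26, 0.24 and 0.19 at passages 47, 54 and 56. Mrpl37 differed by 0.13, Mrpl23-ps1, a pseudogene, by 0.11 and Mrpl41 by -0.13. At passage 54 all 20 were higher in siDicer, against 49.2% of all tested genes and 61.9% of the 2419 others in the signal range of the 6 genes. At passage 47 there were 9 and at passage 56 there were 6.

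Genes of translation factors, found by the symbols Eif and Eef and a short list, had 12 higher and 9 lower of 21 tested, with a median of log2 0.0090 and 0 that passed with or without the block (limma). Eif2ak4, a kinase that senses uncharged transfer RNA, averaged 7.70 in siDicer and 7.53 in siScr, a difference of 0.17 (limma, adjusted p = 0.564). Eef1b2, an exchange factor of elongation, differed by 0.17, Eif2s2, a subunit of the factor that brings the initiator transfer RNA, by -0.24 and the pseudogene Eif1-ps3 by -0.19. The difference of Eif2s2 was -0.56 at passage 47 and 0.024 at passage 56.

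Ribosome assembly genes were higher in 22 and lower in 10 of 32 tested, with a median of log2 0.032, beside a share of 45.5% higher over all tested genes, and 0 passed with or without the block (limma). Imp4, a part of the complex that processes small-subunit ribosomal RNA, averaged 8.55 in siDicer and 8.31 in siScr, a difference of 0.24 (limma, adjusted p = 0.355). Its siDicer array was the higher at each passage, by 0.28, 0.31 and 0.13. Nop10, a protein of the particles that make pseudouridine in ribosomal RNA, differed by -0.15, Nmd3, the export adaptor of the large subunit, by -0.17 and Nifk by 0.16 (limma, adjusted p from 0.517 to 0.663).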

How the data were processed

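The authors deposited log2 signals per transcript cluster of Clariom D arrays. Per the submitters' processing notes the software was Affymetrix Expression Console; its version, the summarisation method and the genome build were not given in the sources used here. The log2 scale was read from the values (1.70 to 13.70), and the centring is unknown beyond the near-equal medians. The table holds 16383 clusters on 6 arrays, of which 7715 were paired with 1 gene after merging old and current symbols through RefSeq, 270 with several and 8398 with none. The cluster with the highest mean stood for a gene, and genes under the 30th percentile (log2 4.15) were not tested, which left 5361. The comparison used limma 3.58.1 (R 4.3.3) without a block, and with passage as a replicate block as an alternative. The code was tested on simulated data. Replicate numbers pair samples here because each stands for a passage that the labels give in both groups, and deviations from group means correlated at 0.42, 0.62 and 0.070 for passages 47, 54 and 56. Exact permutation tests used scipy 1.17.1. The genes, lists and alternatives were chosen with earlier results of these data known. The text names the 6 genes, all other cytosolic ribosomal protein genes with a row, up to 4 genes of each further list by smallest p, nucleolar RNA genes inside the former, and nearest profiles. Symbols Rpsa-ps and Rplp0-ps did not match the pseudogene form. The number of arrays limits the precision.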

Additional observations from a re-analysis of the deposited data

How the results depend on the processing

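None of the 6 ribosomal protein genes passed the threshold, for siDicer against siScr or for passage, under any of the 16 alternatives run for the group difference and those of them that apply to passage. These were median centring, quantile normalisation, no filter on dim genes, array weights, no trend, the mean of all clusters of a gene, the replicate block, each array left out, and, added after seeing the data, the block without each passage. The replicate block changed no call of these genes. The count over all tested genes was 1, and it was 14 with array weights, 93 with the replicate block, 0 to 2 with 1 array left out (the lowest when siDicer replicate 3 was left out, the highest for siScr replicate 2), and with the block 5 without passage 47, 19 without passage 54 and 153 without passage 56. For fits across all genes the cause of these changes was not tested. The median difference of the 6 genes was 0.014 and ran from -0.0031 to 0.061 with 1 array left out; it was 0.095, -0.0092 and -0.0074 with the block without passages 47, 54 and 56. Rps20 kept its direction in all 16 alternatives, Rpl22 in all but the block without passage 54 (-0.0049), and Rpl11, Rpl37a, Rps3a1 and Rpl7 changed sign in 2, 3, 4 and 5 of them, among them median centring for Rpl7. Some of the 16 could not change a sign. For these genes no filter on dim genes, no trend, the mean of all clusters and the full replicate block leave the difference itself unchanged. The scalings moved the median of all tested genes from -0.0093 to no further than 0.0023.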
